A study of Mus musculus with 96 samples.

Results

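The comparison described here sets the libraries taken 15 to 18 h after serum addition against those taken 11 to 14 h after it, in mouse embryonic fibroblasts (MEFs) re-entering the cell cycle. The libraries were chosen by their labels for time course and time alone. They number 21 of the 96 libraries of the series, and the rule uses no measured value. The cells were primary MEFs of the CF-1 strain from E13 embryos, untreated apart from serum. All were starved for 36 h in medium with 0.5% fetal calf serum (FCS), and FCS was raised to 20% at 0 h. The experiment was carried out as 2 time courses, labelled Cycle 1 and Cycle 2. In Cycle 1 the window of 11 to 14 h holds 6 libraries, at 11, 11.5, 12, 13, 13.5 and 14 h, and the window of 15 to 18 h holds 7 libraries at every 0.5 h. In Cycle 2 each window holds 4 hourly libraries. The 12.5 h and 14.5 h samples of Cycle 1 are in neither window. Each time was sampled once in a Cycle, so the libraries of a window are successive times and nothing in the labels says that they are separate cultures. The p-values below therefore set the difference between windows against the spread over the hours inside them, which includes any trend within a window. Populations starved and refed are only partly synchronous, so a window is a mixture of cells in different phases. DNA synthesis was not measured in these files, so the windows are called by their hours and not by a phase.

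The libraries held 5179763 to 12962139 reads, a depth read off the steps between low values. Of the 21 libraries 3 lay under 7000000 reads, namely 12 h and 18 h of Cycle 1 and 16 h of Cycle 2. The values are a normalized signal, in which every library was scaled to the same total. The scaling makes libraries comparable gene by gene, but the values are not per length, so levels of different genes are not compared. The sums of marker genes below are likewise compared between libraries, not between marker sets. For the fibroblast markers the summed signal was 171900 to 226400 over 10 genes. The summed signal of the 7 endothelial markers was 88.7 to 169 and that of the 7 epithelial markers 139 to 355. The macrophage and blood markers, 7 genes measured, summed to 713 to 1044 in Cycle 1 and 2548 to 2909 in Cycle 2. No marker was at 0 in all 21 libraries. The fibroblast sum moved with the windows in Cycle 1, from 193200 to 226400 down to 171900 to 183600. Its ranges overlapped in Cycle 2, with 201900 to 219900 and then 194100 to 205400. The epithelial sum also moved in Cycle 1, from 295 to 355 down to 202 to 264. The epithelial sum did not separate the windows in Cycle 2, where the ranges were 140 to 183 and 139 to 170. The muscle and neural sum likewise went from between 3501 and 3888 down to between 2838 and 3148 in Cycle 1, and overlapped in Cycle 2 with 2692 to 2976 and 2700 to 2772. The part of other cells in the results was not tested.

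Cells leaving quiescence build up G1 cyclins, switch on E2F target genes for DNA replication around the start of S phase, and switch on genes for mitosis later, during S and G2. Origin licensing loads the Mcm helicase on DNA before S phase, and origin firing starts the forks during it. Genes of mitosis are held down in G0 and G1 by the DREAM complex and are driven later by B-Myb and FoxM1, through promoter elements known as CHR (cell cycle genes homology region) and CCAAT boxes.

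The promoters of several genes that the results turn on are shown here because CHR and CCAAT letters were more frequent in the largest group of rising genes than over the whole table. Each is the 100 bases before the RefSeq transcription start on GRCm38.p6, written 5′ to 3′ on the gene's strand, with CHR letters (TTTGAA or TTTAAA) and CCAAT in capitals, on either strand. The genes shown are examples. Ccnb1, Cdk1, Top2a, Ncapg and Iqgap3 rose at 15 to 18 h, as did Nuf2, a riser without these letters here. Other named risers, among them Kif2c, Neil3, Tk1 and Tyms, also hold neither CHR letters nor CCAAT in these bases. Serpinb2 and Dmp1, which fell, each have a transcription start with CHR letters. Mcm5 and Mcm2, subunits of the Mcm helicase, did not pass the test, and Mcm2 holds CHR letters.
Ccnb1, chr13:100786487-100786586, minus strand: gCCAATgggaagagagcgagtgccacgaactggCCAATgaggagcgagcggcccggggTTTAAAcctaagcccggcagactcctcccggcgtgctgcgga
Cdk1, chr10:69352913-69353012, minus strand: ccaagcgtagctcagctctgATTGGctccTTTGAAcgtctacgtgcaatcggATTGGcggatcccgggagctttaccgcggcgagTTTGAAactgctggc
Top2a, chr11:99024190-99024289, minus strand: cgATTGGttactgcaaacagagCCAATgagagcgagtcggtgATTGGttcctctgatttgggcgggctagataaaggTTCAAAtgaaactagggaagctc
Ncapg, chr5:45669825-45669924, plus strand: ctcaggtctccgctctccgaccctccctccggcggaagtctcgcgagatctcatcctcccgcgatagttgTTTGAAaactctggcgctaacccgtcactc
Iqgap3, chr3:88081951-88082050, plus strand: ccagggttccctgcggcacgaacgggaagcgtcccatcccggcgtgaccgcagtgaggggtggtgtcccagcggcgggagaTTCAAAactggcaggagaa
Nuf2, chr1:169531465-169531564, minus strand: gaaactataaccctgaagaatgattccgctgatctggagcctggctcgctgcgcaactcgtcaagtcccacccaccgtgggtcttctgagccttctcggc
Mcm5, chr8:75109409-75109508, plus strand: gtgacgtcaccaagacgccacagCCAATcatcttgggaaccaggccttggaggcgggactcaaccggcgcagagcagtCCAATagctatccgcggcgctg
Mcm2, chr6:88898781-88898880, minus strand: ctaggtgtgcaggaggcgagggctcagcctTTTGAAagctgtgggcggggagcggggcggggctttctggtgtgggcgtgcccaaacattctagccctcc

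In the window of 250 bases before to 50 bases after the start, CHR letters were found in 74.5% of the 55 promoters matched to 50 of the 64 genes of mitotic entry, spindle and kinetochore. The same letters were found in 19.8% of the 14629 promoters matched to 11510 genes of the table. CCAAT was found in 76.4% of the mitotic promoters against 36.9% of all, and both together in 61.8% against 7.64%. CCAAT alone was not particular to rising genes, as some lists with no called gene show. It was found in 77.8% of promoters for cholesterol synthesis and uptake, 66.7% for chromatin assembly, 64.7% for origin licensing and 27.8% for nucleolar ribosome biogenesis. For origin licensing the shares were 17.6% for CHR and 47.1% for an E2F site (TTTCCCGC, TTTCGCGC, TTTGCCGC or TTTGGCGC), and 3.55% of all promoters held such a site. The mitotic promoters held it in 5.45%. Among promoters of all genes higher at 15 to 18 h 44.6% held CHR letters, and among those of genes lower 20.6% did. For CCAAT the same shares were 53.1% and 32.3%. These are matches of letters on either strand, not measured binding sites. The promoter of Ccna2 was not analysed here.

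Over all 15895 genes, 327 were higher at 15 to 18 h and 335 were lower. The call needs an adjusted p under 0.05 by limma with Benjamini-Hochberg adjustment on log2(value + 1), averaged over the Cycles, and a difference above 0.5 in size on that log2 scale. The shares called are 2.06% higher and 2.11% lower. With the adjusted p alone, 7.99% of genes were higher and 7.94% lower. The median difference over all genes was 0.0015. Since each library was scaled to the same total, a general shift could not be seen in these values. Of the 327 higher genes 325, and of the 335 lower genes 334, had the same sign in Cycle 1 and in Cycle 2, which choosing them on the average of both Cycles favours. Over the 11744 genes with a mean signal of at least 20, called or not, Pearson's r between the differences of the Cycles was 0.50, across genes, which are not independent. Lists of cell cycle and replication genes, 10 lists with 291 of the 15895 genes, held 27.5% of the higher genes (90 of 327) and 0.30% of the lower (1 of 335). Most of these higher genes were in 2 lists, with 60 in the mitotic list and 6 among the condensins. Origin licensing and chromatin assembly held 0 of them. The sizes in the Cycles were unequal for rises. The higher genes had a median of 0.98 in Cycle 1 and 0.41 in Cycle 2, whereas the lower genes had medians of -0.78 and -0.68. Without overlap between the windows in either Cycle, 1.13% of all genes were higher and 1.08% lower, and 87 of the called higher genes and 68 of the called lower genes were among them. Treating the 2 Cycles as the only replicates gave 0 calls in either direction by limma, with 380 genes higher and 547 lower at an unadjusted p under 0.05 and the same size.

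**Figure D1:**
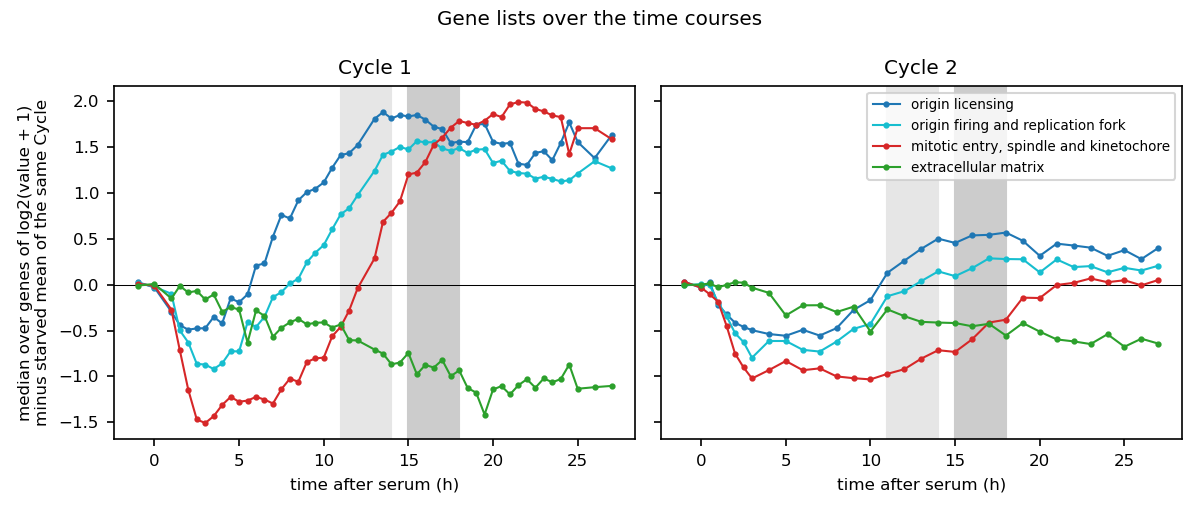
Median over the genes of 4 lists of log2(value + 1) minus the starved mean of the same Cycle (y axis) against time after serum in h (x axis), with the windows of 11 to 14 h (light grey) and 15 to 18 h (darker grey) shaded. The mitotic list climbed from 0.78 at 14 h to 1.79 at 18 h in Cycle 1 and from -0.71 to -0.38 in Cycle 2, while origin licensing went from 1.42 at 11 h to 1.84 at 15 h and 1.56 at 18 h in Cycle 1.

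Genes of mitotic entry, spindle and kinetochore rose almost as a body. Of 64 members 60 were higher and 0 lower by limma, beside 2.06% and 2.11% of all genes. With the adjusted p alone 63 members were higher, beside 7.99% of all genes. By edgeR on recovered reads, which leaves out genes averaged over transcripts, 46 were higher and 0 lower. The list's median difference was 0.80, against 0.0015 over all genes, and its members ranged from 0.20 (Bub3) to 1.05 (Nuf2). More cells in G2 and more mRNA per cell cannot be told apart in such bulk libraries. The 4 members not called were Cdc25b, Wee1, Bora and Bub3. Cdc25b, a phosphatase that activates Cdk1, missed the size limit at 0.50, and Wee1, the kinase that inhibits Cdk1, had 0.31 with an adjusted p of 0.000526. Without overlap between the windows, 58 of the 64 genes were higher in Cycle 1, 27 in Cycle 2 and 26 in both, against 4.32%, 3.8% and 1.13% of all genes.

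Ccna2 encodes cyclin A2, the partner of Cdk2 in S phase and of Cdk1 in G2, and lies on chromosome 3 at 36463788 to 36471072 (NCBIM37, as all gene positions). In Cycle 1 its signal was 714 at the lowest, 1109 at the median and 1876 at the highest at 11 to 14 h, and 2194, 2741 and 2892 at 15 to 18 h. In Cycle 2 it was 1277, 1315, 1320 and 1488 at 11, 12, 13 and 14 h, and 1511, 1780, 1919 and 1955 at 15, 16, 17 and 18 h. The windows did not overlap in either Cycle. The log2 difference was 0.80 ± 0.14 (SE, adjusted p = 0.000585), or 1.74-fold. Top2a, the topoisomerase that untangles sister chromatids, followed the same order with a larger step. Its signal in Cycle 1 was 931, 1412 and 2104 (lowest, median and highest) and then 3291, 3949 and 4854. Cycle 2 gave 1765, 1994, 2008 and 2296, followed by 2309, 2788, 2848 and 2781. The later libraries were all above the earlier ones, by a small margin at 15 h of Cycle 2. The difference of 0.93 ± 0.13 (adjusted p = 0.00026) is 1.90-fold.

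Ccnb1, the gene of cyclin B1, which forms with Cdk1 the kinase that starts mitosis, lies on chromosome 13 at 101548605 to 101556525. Its signal in Cycle 1 was 73.4, 102.7 and 209 and then 240.7, 314 and 395. In Cycle 2 it was 202, 225, 212 and 245, and then 214, 203, 286 and 318. The windows were apart in Cycle 1 and overlapped in Cycle 2, where the 15 h and 16 h libraries lay within the range of the early ones. Its mean difference was 0.82 ± 0.16 (adjusted p = 0.0016), of which Cycle 1 gave 1.45 and Cycle 2 0.18. Cdk1 itself, on chromosome 10 at 68799383 to 68815686, had 778, 1382 and 2375 and then 2345, 2968 and 3171 in Cycle 1. The Cycle 2 values were 1387, 1519, 1630 and 1791, and then 1674, 1990, 2207 and 2504. The windows overlapped narrowly in both Cycles, through the 14 h and 15 h libraries. The difference was 0.75 ± 0.16 (adjusted p = 0.0034).

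**Figure D2:**
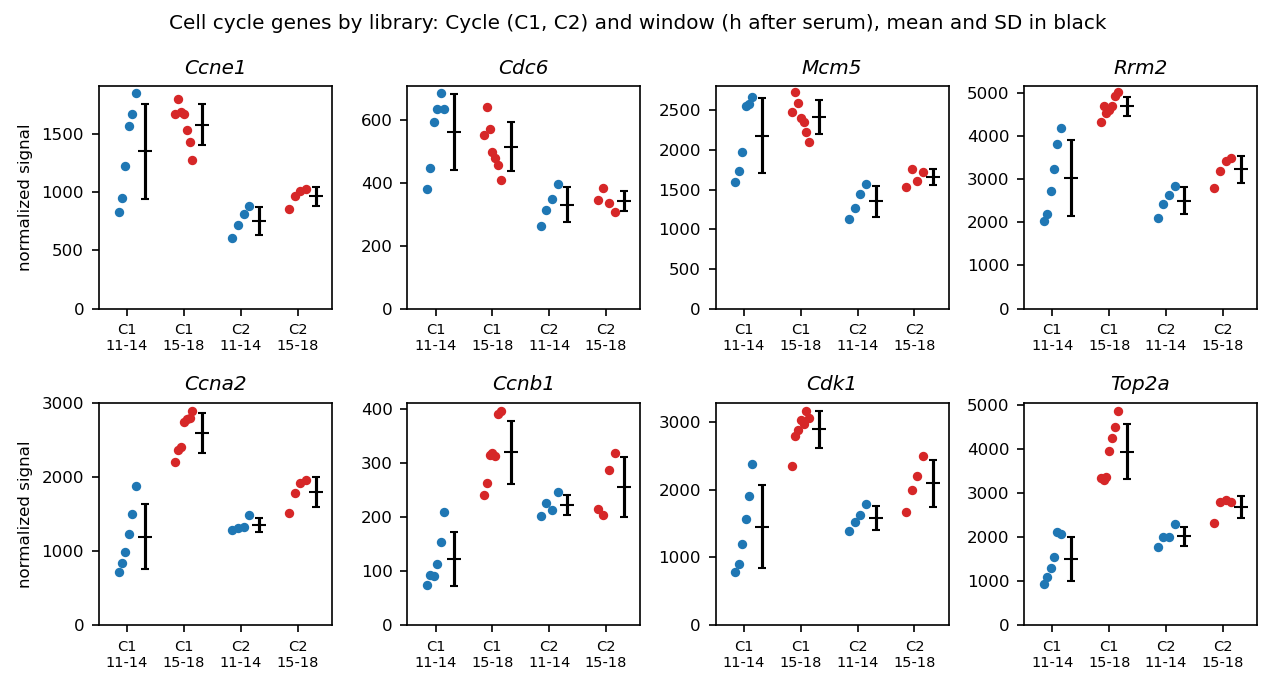
Normalized signal (y axis, from 0) of 8 cell cycle genes in each library of the 4 groups, ordered by time from left to right within a group, with the mean and SD of the group in black. Every library at 15 to 18 h was above every library at 11 to 14 h of its Cycle for Top2a and Ccna2. For Rrm2 and Ccnb1 this held in Cycle 1 only. Ccne1, Cdc6 and Mcm5 rose within 11 to 14 h and fell within 15 to 18 h of Cycle 1.

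Other members of the list cover each step of mitosis. Among kinetochore genes Nuf2, a subunit of the Ndc80 complex that binds microtubules, had 1.05 ± 0.17 (adjusted p = 0.000361). Ndc80 had 0.95, Spc25 0.98 and Spc24 0.79. The checkpoint kinases Bub1 and Ttk had 0.96 and 0.95. Of the motor proteins Kif2c, which depolymerizes microtubules, had 1.03 and Kif11, which pushes the poles apart, 1.01. Aurkb and its partners Birc5, Incenp and Cdca8, the chromosomal passenger complex, had 0.98, 0.94, 0.66 and 0.79. The cytokinesis genes Anln, Ect2, Prc1 and Racgap1 lay between 0.88 and 0.92. Targets and activators of the anaphase-promoting complex were included, with 0.94 for Ube2c, its E2 enzyme, 0.58 for Cdc20 and 0.61 for securin (Pttg1). Mki67, the Ki-67 proliferation marker that coats mitotic chromosomes, had 472, 684 and 1008 and then 1652, 2234 and 3107 in Cycle 1. Cycle 2 gave 1150, 1311, 1256 and 1412, and then 1560, 1676, 1888 and 1694. Its windows were apart in both Cycles, and the difference was 1.03 ± 0.13 (adjusted p = 0.000181).

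Condensins, the ring complexes that compact mitotic chromosomes, rose too. Of 8 subunits 6 were higher and 0 lower, beside 2.06% and 2.11% of all genes, with a list median of 0.65. Ncapg had 0.87 ± 0.15 (adjusted p = 0.000746), Ncapd2 0.80 ± 0.13 and Ncaph 0.70 ± 0.12. The core ATPases Smc2 and Smc4 had 0.66 and 0.65. The subunits of condensin II moved less, with 0.63 for Ncapg2, called, and 0.41 for Ncapd3 and 0.19 for Ncaph2, not called.

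Among the times after serum, the highest levels of these genes came later. In Cycle 1, 60 of the 64 mitotic genes had their highest value after 18 h (between 1 and 27 h) and 4 within 15 to 18 h, and in Cycle 2 60 had it after 18 h. The median hour was 22 in Cycle 1 and 24 in Cycle 2. Ccnb1 reached 749 at 21 h in Cycle 1 and Top2a 4941 at 22 h, so that in Cycle 1 the window of 15 to 18 h lies on the rising flank. The starved libraries were not part of this search. Against starved cells the median of the mitotic list in Cycle 2 was -0.38 at 18 h and 0.05 at 27 h. In Cycle 1 it was 1.79 and 1.59.

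Genes that set up replication had small differences between the windows, none of which was called. Of the 15 origin licensing genes 0 were higher and 0 lower by limma, 1 passed the adjusted p in size below the limit (Gmnn, the licensing inhibitor geminin, 0.49 with an adjusted p of 0.0451), and the list median was 0.09. At an unadjusted p under 0.05 6 of them were higher and 1 lower, against 14.1% and 14.4% of all genes. By edgeR on recovered reads the list also had 0 higher and 0 lower. The window means cover a rise and a fall in Cycle 1. Mcm5 went from 1591 at 11 h to 2665 at 14 h, stood at 2728 at 15.5 h and was back at 2102 at 18 h. Its Cycle 2 values were 1125, 1274, 1443 and 1571, and then 1539, 1759, 1604 and 1726. The difference of 0.24 ± 0.094 had an adjusted p of 0.0997. Cdc6, which loads the helicase with Cdt1, rose from 381 to 686 at 13.5 h and came down to 407 at 18 h, and its window difference was -0.02 ± 0.11 (adjusted p = 0.929). Cdt1 had 636, 752 and 895 and then 478, 562 and 694 in Cycle 1. In Cycle 2 its libraries lay between 538 and 582 at 11 to 14 h and between 553 and 575 at 15 to 18 h. Its within-Cycle differences were -0.41 and 0.02, and their average, -0.20 ± 0.068, did not pass (adjusted p = 0.0568). The median hour of the highest value of licensing genes was 14.5 in Cycle 1 and 17 in Cycle 2.

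Fork genes lay between these groups. Of 44 genes of origin firing and the replication fork, 5 were higher and 0 lower, beside 2.06% and 2.11% of all genes. With the adjusted p alone 25 were higher, beside 7.99% of all genes, and the list median was 0.29. The called ones were Recql4, a helicase that helps to start forks (0.63 ± 0.14, adjusted p = 0.00437), Rfc5, a subunit of the clamp loader (0.54 ± 0.13), Gins1 (0.53 ± 0.15) and Gins2 (0.51) of the replicative helicase, and Pole, the leading strand polymerase (0.51). With the Cycles pooled, without the 3 libraries under 7000000 reads, or without any of 4 single libraries (11, 11.5 or 12 h of Cycle 1, or 11 h of Cycle 2), Gins1 was no longer called. Without 11 h of Cycle 1 or 11 h of Cycle 2, Rfc5 was not. Pcna, the sliding clamp, had 626, 766 and 847 and then 671, 854 and 897 in Cycle 1. Its Cycle 2 values were 442, 496, 531 and 609, and then 608, 600, 602 and 573. The windows overlapped in both Cycles, and the difference was 0.17 ± 0.066 (adjusted p = 0.088).

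Enzymes that make deoxynucleotides were among the higher genes of the synthesis list, whose 33 members had a median of 0.16. Of these members 3 were higher and 0 lower, beside 2.06% and 2.11% of all genes. Tk1, thymidine kinase, had 112, 266 and 471 and then 522, 615 and 654 in Cycle 1. Cycle 2 went from 175 at 11 h to 321 at 14 h, and from 311 at 15 h to 471 at 18 h. The windows were apart in Cycle 1 and overlapped through 14 h and 15 h in Cycle 2. The difference was 0.99 ± 0.21 (adjusted p = 0.0034), or 1.99-fold. Tyms, thymidylate synthase, had 0.57 ± 0.14. Rrm2, the small subunit of ribonucleotide reductase, had 2026, 2979 and 4188 and then 4339, 4700 and 5015 in Cycle 1. Cycle 2 gave 2103, 2428, 2636 and 2849, and then 2806, 3199, 3414 and 3499. Its difference was 0.53 ± 0.11 (adjusted p = 0.00308), near the size limit, and the call was lost by edgeR and without 11 or 11.5 h of Cycle 1 or 11 h of Cycle 2. Tyms lost it without 11 h of Cycle 1. With the adjusted p alone 14 of the 33 were higher and 0 lower, beside 7.99% and 7.94% of all genes. A difference above 0 was found in 29 of the list, against 8006 of all 15895 genes.

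**Figure D3:**
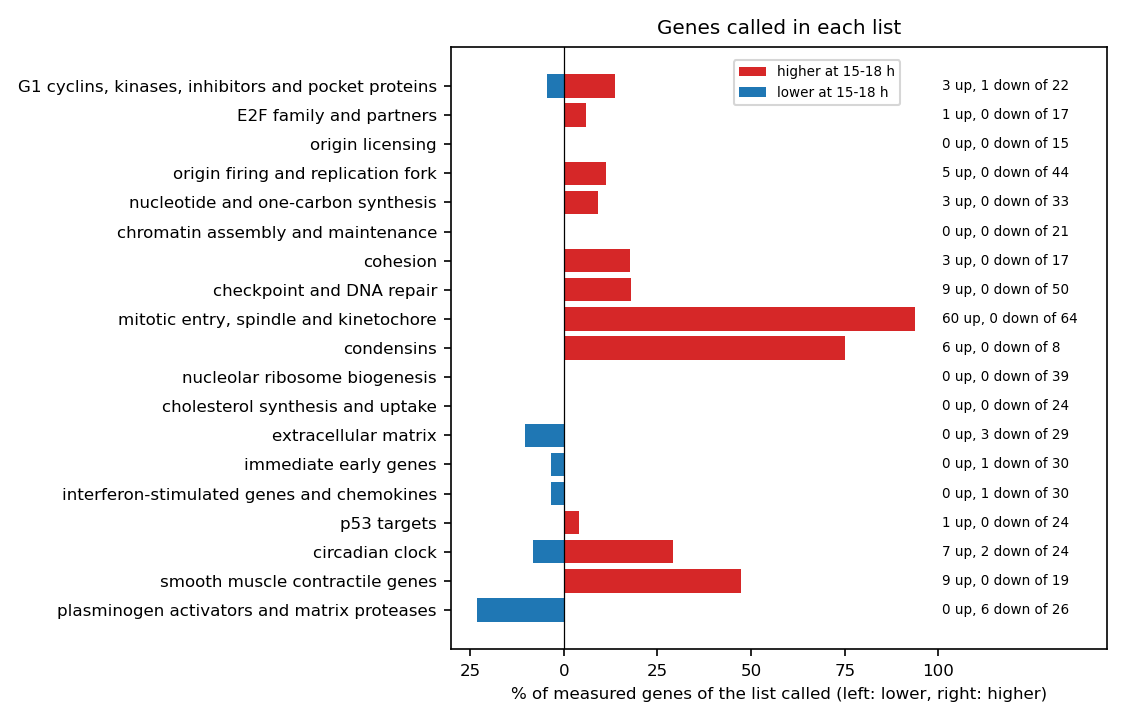
Share in % of the measured genes of each list called higher (red, to the right) or lower (blue, to the left) at 15 to 18 h, with the counts printed at the right. The mitotic list and the condensins stand out with 60 of 64 and 6 of 8 genes higher, beside 2.06% of all genes. The lowest 3 lists were put together after values had been seen.

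Genes of checkpoint and DNA repair gave 9 higher and 0 lower of 50, beside 2.06% and 2.11% of all genes, and a median of 0.28. With the adjusted p alone 28 were higher, beside 7.99% of all genes. Fancd2, the Fanconi anaemia protein that acts at stalled forks, lies on chromosome 6 at 113481676 to 113547011. Its signal was 45.9, 54.2 and 78.0 and then 134, 185 and 238 in Cycle 1. In Cycle 2 it was 85.7, 97.4, 91.0 and 107.2, and then 123, 133, 145.3 and 124. The windows were apart in both Cycles, and the difference was 1.05 ± 0.10 (adjusted p = 4.23e-05), or 2.07-fold. The helicase Brip1 had 0.71 ± 0.11 and Rad54b, which acts in homologous recombination, 0.75 ± 0.14.

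Of the 17 cohesion genes 3 were higher and 0 lower, beside 2.06% and 2.11% of all genes. All 3 act on the ring rather than form it. Esco2, which acetylates cohesin during replication, had 0.95 ± 0.16 (adjusted p = 0.000636). Cdca5, sororin, had 0.63 ± 0.17 and Chtf18, of the clamp loader used in cohesion, 0.83 ± 0.19. The ring genes Smc1a, Smc3 and Rad21 had 0.33, 0.18 and 0.33. Cdca5 was not called with whole hours only. Chromatin assembly genes gave 0 higher and 0 lower of 21 by limma, with a median of 0.26, and 0 higher and 0 lower by edgeR. By the adjusted p of limma alone 12 were higher, beside 7.99% of all genes. At an unadjusted p of limma under 0.05 15 of the 21 were higher, beside 14.1% of all genes. Slbp, the histone mRNA binding protein, had 0.13 ± 0.048 (adjusted p = 0.0689). Supt16h of this list, Noc2l of the nucleolar list and Hmgcs1 of the cholesterol list were not analysed here.

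Among 22 G1 cyclins, kinases, inhibitors and pocket proteins 3 were higher and 1 lower, beside 2.06% and 2.11% of all genes. The higher ones were the Cdk4 and Cdk6 inhibitors Cdkn2c (0.57 ± 0.14, adjusted p = 0.00921) and Cdkn2d (0.96 ± 0.28) and Fbxo5, the inhibitor of the anaphase-promoting complex known as Emi1 (0.68 ± 0.15). Cdkn2d is weak, with no library above 14.7, and lost its call without 12 h or 17 h of Cycle 2. The lower gene was Cdkn1c, the inhibitor p57 (-0.55, adjusted p = 0.000181). Ccnd1, cyclin D1, had 2272, 2525 and 2581 and then 2342, 2425 and 2541 in Cycle 1. Its Cycle 2 values were 1364, 1391, 1337 and 1397, and then 1224, 1292, 1157 and 1111, where the windows did not overlap. Its difference of -0.12 ± 0.034 passed the adjusted p (0.0177) but not the size limit. Ccne1, cyclin E1, rose from 833 at 11 h to 1853 at 14 h in Cycle 1 and was back at 1281 at 18 h. Its Cycle 2 libraries had 608, 717, 818 and 879, and then 852, 967, 1014 and 1028. The difference was 0.32 ± 0.13 (adjusted p = 0.0983). Ccne2 had 0.23 ± 0.080 (adjusted p = 0.0587), and the p53 target and Cdk inhibitor Cdkn1a 0.07 ± 0.051 (adjusted p = 0.425).

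The E2F family gave 1 higher and 0 lower of 17, beside 2.06% and 2.11% of all genes. The higher gene was Foxm1, listed among the partners, the factor that drives G2 and M genes. It had 316, 477 and 819 and then 1047, 1370 and 1536 in Cycle 1. The values of Cycle 2 were 610, 668, 736 and 776, and then 916, 917, 1075 and 898. The windows were apart in both Cycles, and the difference was 0.88 ± 0.15 (adjusted p = 0.000634). E2f1 had 0.14 ± 0.092 (adjusted p = 0.339). The late E2F repressors E2f7 and E2f8 had 0.42 and 0.36, and Mybl2, the gene of B-Myb, 0.45, below the size limit with adjusted p of 0.00108, 0.00537 and 0.0174.

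Nucleolar ribosome biogenesis had 0 higher and 0 lower of 39 with a median of 0.01, and cholesterol synthesis and uptake 0 and 0 of 24 with a median of 0.06. With the adjusted p alone the former had 3 higher and 1 lower and the latter 0 higher and 2 lower. The 24 p53 targets gave 1 higher gene, the death receptor Fas (0.51 ± 0.11, adjusted p = 0.00367), close to the size limit. With the adjusted p alone 6 of them were higher and 1 lower. Fas lost its call with log2(value + 5), with whole hours only, with the Cycles pooled, or without any of 9 single libraries. Of the 30 immediate early genes, the first to respond to serum, 1 was lower, the AP-1 gene Fosb (-0.90 ± 0.15, adjusted p = 0.000582). With the adjusted p alone 10 of them were lower and 1 higher, and the list median was -0.13. Of the 30 interferon-stimulated genes and chemokines 1 was lower, Ccl5 (-0.82 ± 0.14, adjusted p = 0.000708). Over all genes 2.06% were higher and 2.11% lower, and with the adjusted p alone 7.99% and 7.94%. A single called member in lists of this size is therefore not a result about the list.

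Extracellular matrix genes had mostly small differences below 0. Of 29 members 0 were higher and 3 lower, beside 2.06% and 2.11% of all genes. With the adjusted p alone 16 were lower, beside 7.94% of all genes. A difference below 0 was found in 27 members, against 7877 of all 15895 genes, and the list median was -0.18. Eln, the gene of elastin, had 1169, 1447 and 1722 and then 639, 801 and 871 in Cycle 1. Cycle 2 gave 1698, 1278, 1160 and 1071, and then 949, 840, 742 and 657. The windows did not overlap in either Cycle, and the difference was -0.78 ± 0.095 (adjusted p = 0.000181), a ratio of 0.58. The proteoglycan gene Lum had -0.55 ± 0.092 and the collagen gene Col3a1 -0.52 ± 0.078. Without 11 or 11.5 h of Cycle 1, or 11 or 18 h of Cycle 2, Col3a1 was under the size limit. Against starved cells the list's median was -0.43 at 11 h and -0.93 at 18 h in Cycle 1, and -0.27 and -0.55 in Cycle 2. The fibroblast marker sum given above moved the same way in Cycle 1, but 3 of its 10 genes, Col1a1, Col1a2 and Col3a1, are also members of this list, so the sum is no separate measure.

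**Figure D4:**
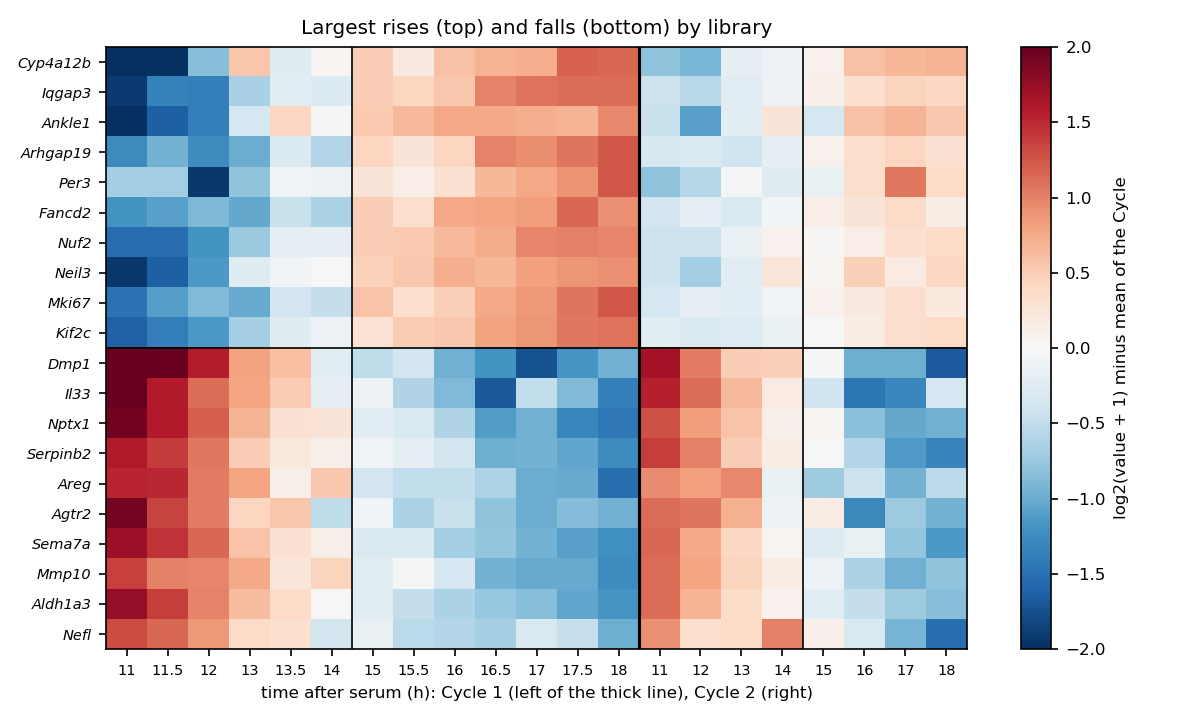
log2(value + 1) of the 10 largest rises and the 10 largest falls in each of the 21 libraries (columns, time after serum in h), minus the mean of the gene over the libraries of its Cycle. Colours end at -2 and 2, and values beyond are drawn at the end colour. Iqgap3 rose by 1.79 in Cycle 1 and 0.65 in Cycle 2, whereas Serpinb2 had -1.50 and -1.52.

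The 10 largest rises among genes with a mean signal of at least 20 and the same sign in both Cycles include 3 members of the mitotic list (Nuf2, Mki67 and Kif2c) and 1 of the repair list (Fancd2). Iqgap3, a scaffold protein of the IQGAP family, had 78.9, 154 and 260.0 and then 404, 597 and 654 in Cycle 1. The Cycle 2 values were 249.3, 227, 289 and 314, and then 360, 419, 460 and 450. The windows were apart in both Cycles, and the difference was 1.22 ± 0.19 (adjusted p = 0.00032), or 2.33-fold. Arhgap19, a GTPase-activating protein used in cytokinesis, had 49.1, 60.5 and 97.7 and then 143, 230.0 and 284 in Cycle 1. Cycle 2 gave 117, 120.1, 111 and 130, and then 156, 187, 197 and 181. Its difference was 1.12 ± 0.14 (adjusted p = 0.000181). The endonuclease Ankle1 had 1.15 ± 0.27 and the DNA glycosylase Neil3 1.04 ± 0.22. The clock gene Per3 had 1.07 ± 0.22 and Cyp4a12b 1.28 ± 0.31 (adjusted p = 0.00765). Cyp4a12b belongs to a family of near-identical cytochrome P450 genes whose reads may be shared, its signal in Cycle 1 was 1.83 to 32.9, and it was not called with the Cycles pooled.

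The largest falls were led by Dmp1, a secreted matrix protein of bone. Its signal in Cycle 1 was 18.0, 50.7 and 99.1 and then 5.54, 10.2 and 15.9. Those of Cycle 2 were 65.1, 41.4, 28.5 and 28.3, and then 19.4, 9.65, 9.69 and 5.60. Every later library was below every earlier one of its Cycle, and the difference was -1.99 ± 0.29 (adjusted p = 0.000261), a ratio of 0.25. Serpinb2, the inhibitor of plasminogen activators known as PAI-2, had 2303, 3742 and 6458 and then 901, 1112 and 2047 in Cycle 1. Cycle 2 gave 4743, 3649, 2553 and 2016, and then 1804, 1215, 828 and 727. The windows were apart in both Cycles and the values fell at every hourly step of Cycle 2. The difference was -1.51 ± 0.24 (adjusted p = 0.000363). The cytokine gene Il33 had -1.80 ± 0.28, the EGF receptor ligand Areg -1.50 ± 0.20 and the matrix protease Mmp10 -1.36 ± 0.19. The angiotensin receptor Agtr2 had -1.44 ± 0.26, the membrane-bound semaphorin Sema7a -1.41 ± 0.22 and the retinoic acid enzyme Aldh1a3 -1.36 ± 0.20. The neuronal genes Nptx1 and Nefl had -1.62 ± 0.24 and -1.23 ± 0.21, and Nefl was not called with the Cycles pooled.

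Of these 10 genes 9 had their highest value (between 1 and 27 h) at 3 to 8 h in both Cycles. Serpinb2 was highest at 8 h in both Cycles, at 10050 and 8889, against starved means of 9.04 and 19.9. Dmp1 was highest at 4.5 h of Cycle 1 (560.5) and 5 h of Cycle 2 (228), Areg at 5.5 h (1391) and 4 h (801), and Aldh1a3 at 6 h in both (5238 and 2097). Agtr2 differed, with a starved mean of 9705 in Cycle 1 and 1043 in Cycle 2 and its highest value at 1.5 h and 1 h.

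The question whether the windows differ alike in both time courses was put to each gene as the difference of Cycle 1 minus that of Cycle 2. Over all genes 37 passed an adjusted p under 0.05 by limma, which is 0.233%. The 5 genes with the smallest p and a mean signal of at least 20 were Zfp651, Blm, Trabd2b, Ctcf and Cxcr4. Blm, the helicase lost in Bloom syndrome, had 210.1, 257 and 308 and then 449, 501 and 550.2 in Cycle 1. Its Cycle 2 values were 301, 298, 324 and 353, and then 368, 349, 366 and 311, where the windows overlapped. The differences were 0.97 and 0.13, apart by 0.84 ± 0.13 (adjusted p = 0.0236). Cxcr4, a chemokine receptor, had -0.91 in Cycle 1 and -0.30 in Cycle 2 (adjusted p = 0.0315), and Ctcf, the insulator protein, 0.44 and -0.02 (adjusted p = 0.0315). Zfp651 and Trabd2b had -0.30 against 0.11 and -0.20 against 0.29. Each of the 5 missed the threshold under some alternatives, with adjusted p up to 0.105. The count of such genes depended on single libraries. It ran from 0 to 173 when each library was left out in turn, with 0 without 11.5 or 17 h of Cycle 1 or 12, 14, 16 or 18 h of Cycle 2 and 173 without 15.5 h of Cycle 1, and was 0 without the 3 libraries under 7000000 reads, where 1719 genes had an unadjusted p under 0.05 and edgeR called 12.

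For the mitotic genes the rise was larger in Cycle 1 in 63 of 64, with list medians of 1.30 in Cycle 1 and 0.33 in Cycle 2. Over all genes the signed difference was larger in Cycle 1 in 8525 of 15895. Of the 64 mitotic genes 6 passed the test of the difference between Cycles, against 0.233% of all genes, whose count depended on single libraries. Top2a (1.44 and 0.41, adjusted p = 0.0904), Ccnb1 (1.45 and 0.18, adjusted p = 0.0853) and Mki67 (1.65 and 0.41, adjusted p = 0.0562) did not pass it. Starting levels differed as well. At 11 to 14 h 58 of the 64 were higher in Cycle 2, with a median of 0.57 (Cycle 2 minus Cycle 1), and at 15 to 18 h 4 of them were, with a median of -0.39. Before serum all 64 were higher in the starved cells of Cycle 2, by a median of 1.64. Top2a had a starved mean of 1314 in Cycle 1 and 4326 in Cycle 2, and Mki67 1147 and 3387. Relative to starved cells, Top2a at 15 to 18 h stood at a ratio of 2.99 in Cycle 1 and 0.62 in Cycle 2. The time course and any difference in culture or handling between Cycles cannot be told apart.

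**Figure D5:**
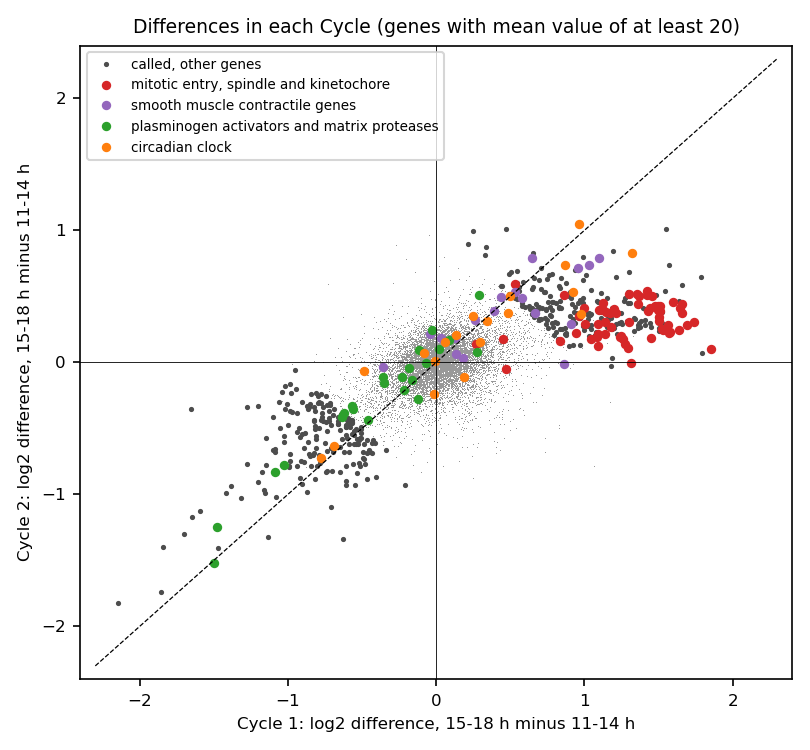
Difference between windows on the log2(value + 1) scale in Cycle 1 (x axis) and Cycle 2 (y axis) for genes with a mean signal of at least 20, with called genes in dark grey, 4 lists in colour and the line of equal differences dashed. Of the mitotic genes (red), 63 of 64 had the larger difference in Cycle 1, with medians of 1.30 and 0.33, and the called lower genes have medians of -0.78 and -0.68. The other 3 coloured lists were put together after values had been seen.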

How the data were processed

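Poly(A) RNA of serum-stimulated MEFs was sequenced by the authors with a stranded kit as single reads of 50 bases on a HiSeq 2500, aligned with STAR to mm9 and counted over exons with HOMER on both strands, so overlapping and antisense genes could not be told apart. The deposited values are a normalized signal, in which the authors scaled each library to a total of 10000000. The table holds 15895 rows, of which 12604 are genes with 1 transcript and 3291 are averages over transcripts. Of its 96 columns 95 matched a library by name. The remaining column names a time of 12.5 h that no title gives, and it was not used. Tool versions are not given in the sources used here.

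Reads were recovered by dividing each column by the value of 1 read. Within a tolerance of 0.1 read, 99.9 to 100.0% of low values were whole, and the 21 libraries held a median of 11560694 reads. Levels rest on counting error and on the hours sampled, and 3256 genes had a mean signal under 10, where differences are imprecise.

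Windows were compared on log2(value + 1) with limma 3.58.1 in R 4.3.3, with a mean for each of the 4 groups of Cycle and window, the difference averaged over the Cycles and p-values adjusted by Benjamini-Hochberg over all genes. A fold is therefore on the log2(value + 1) scale and understates changes of weak genes. A gene was called with an adjusted p under 0.05 and a difference over 0.5 in size. The difference between Cycles was called at an adjusted p under 0.05. On simulated data with 12604 genes for this comparison, limma called 100 of 100 genes changed by 2 on the log2 scale and 100 of 100 changed by 1, with 6 unchanged genes called. The changed genes had a mean of at least 20 and the same change in both Cycles. Libraries were drawn independently, with no trend over the hours. The simulation therefore does not cover changes in weaker genes, changes unequal between Cycles or trends within a window. edgeR 4.0.16 on recovered reads of genes with 1 transcript was an alternative. The other settings were a pseudocount of 5, a mean of at least 20, other scalings, other windows, other minimum sizes, 1 Cycle alone, the Cycles pooled or as the only replicates, and each library left out. Leaving out the 3 libraries under 7000000 reads, and edgeR within a Cycle, were added after seeing the data. Samples were grouped by the labels for Cycle and time, and same-numbered libraries of different windows are different hours and were not paired.

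Genes named in full are 16 core cell cycle genes, the 10 largest rises and 10 largest falls with a mean of at least 20 and the same sign in both Cycles, up to 3 called members of each list, and 5 genes with the smallest p between Cycles. Other members given as examples were chosen after their values were seen. Some members of the repair list are not reported here by name. The comparison and the lists were chosen with earlier results of these data known, and 4 lists were added after values were seen. Promoters and their motifs came from RefSeq on GRCm38.p6, matched by symbol, and gene positions from NCBIM37.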

Additional observations from a re-analysis of the deposited data

Results flagged for a closer look

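A single library stood apart from the others of its group for 10 of 280 pairs of a named gene and a group (3.57%) by Dixon's test, and chance flags about 1 in 20 groups. In Cycle 2 at 15 to 18 h, Top2a was lowest at 15 h with 2309 (nearest 2781), Nptx1 was highest at 15 h with 118.0 (nearest 63.7), Foxm1 was highest at 17 h with 1075 (nearest 917), and Zfp651 was highest at 18 h with 638.9 (nearest 577). In Cycle 2 at 11 to 14 h, 3 genes stood apart at 11 h, namely Cdkn1a, lowest with 2470 (nearest 2693), Cdkn2d, highest with 6.855 (nearest 3.86), and Fosb, highest with 83.11 (nearest 43.2). Cdkn2c was highest at 14 h with 116.7 (nearest 96.8) and Trabd2b at 13 h with 601.0 (nearest 557). In Cycle 1 at 15 to 18 h Cdkn1a was lowest at 15 h with 2236 (nearest 2484). The libraries of a group are successive hours.

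The difference between windows was unequal in the Cycles for 6 of the 70 named genes, by the limma test of Cycle 1 minus Cycle 2 with an adjusted p under 0.05. All but Fancd2 were named because they had the smallest p in this same test, so the count follows from that choice. Over all 15895 genes 37 passed, or 0.233%. The values of Cycle 1 minus Cycle 2 were 1.18 for Fancd2, 0.84 for Blm and 0.46 for Ctcf, all larger in Cycle 1. They were -0.61 for Cxcr4, which fell more in Cycle 1, and -0.40 for Zfp651 and -0.49 for Trabd2b, whose differences had opposite signs in the Cycles. All 6 missed the threshold under some alternatives. The test passed under 16 of 30 for Fancd2 and Cxcr4, 17 of 30 for Ctcf, 19 of 30 for Trabd2b, 22 of 30 for Zfp651 and 22 of 29 for Blm, with adjusted p up to 0.125 for Fancd2 and 0.105 for the others.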

How the results depend on the processing

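The 327 higher and 335 lower genes stood at 269 and 228 with log2(value + 5), 316 and 342 with TMM scaling and 244 and 261 by edgeR, and no called gene changed direction under these settings. Of the 327 and 335 genes, edgeR tested 259 and 273, of which 232 and 238 kept their call. With a mean of at least 20 the lower genes were 204. In that setting 200 of the 335 were tested, and all 200 kept their call. Windows of 16 to 18 h against 11 to 13 h gave 550 higher and 585 lower. With the 2 Cycles as the only replicates, limma called 0 higher, 0 lower and 0 of the mitotic list (380 and 547 genes at an unadjusted p under 0.05 and the same size). Cycle 1 alone gave 523 higher genes (401 by edgeR). Cycle 2 alone gave 0 higher, 3 lower and 0 of the mitotic list (222 and 418 unadjusted, 39 and 61 by edgeR), with 2 of the called higher genes of opposite sign there. Without a minimum size 1270 were higher and 1262 lower, and with a minimum of 1 there were 20, 57 and 5 of the mitotic list. Leaving out 1 library at a time gave 270 to 370 higher, 241 to 390 lower and 59 to 61 mitotic genes.

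The 37 genes that differed between Cycles became 122 with a mean of at least 20, 128 with trend and robust fitting, 106 by edgeR, 23 with whole hours, 245 with the narrower windows and 0 without the 3 libraries under 7000000 reads (1719 unadjusted, 12 by edgeR). Leaving out 1 library gave 0 to 173, and 20 of the 21 libraries, all but 16 h of Cycle 1, moved the count over 1.5 times. It was 0 without 11.5 or 17 h of Cycle 1 or 12, 14, 16 or 18 h of Cycle 2, with 1786 to 2539 genes at an unadjusted p under 0.05, and edgeR called 65 without 11.5 h of Cycle 1. It was 173 without 15.5 h of Cycle 1. The cause of these changes was not tested.

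The Cycle is the only block the labels give. With no replicate block (Cycles pooled) 326 genes were higher and 233 lower, and Cyp4a12b, Nefl, Gins1 and Fas lost their calls among the named genes. The replicate numbers only order the hours, so libraries of different windows were not paired. Of the named genes 7 lost their call without some single library, namely Rrm2, Rfc5, Gins1, Tyms, Col3a1, Fas and Cdkn2d. Depth limits weak genes, with 55 of the higher and 135 of the lower genes under a mean of 20.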

Other observations

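Several groups outside the cell cycle moved with the windows. They were put together after values had been seen, so their counts are a description, beside 2.06% of all genes higher and 2.11% lower. Of 24 circadian clock genes 7 were higher and 2 lower by limma. The higher ones include the repressors Per3 (1.07 ± 0.22, SE) and Per2 (0.80 ± 0.22), the nuclear receptors Nr1d1 (0.50) and Nr1d2 (0.67) and the output factors Dbp (1.01 ± 0.23) and Tef (0.73). Dbp in Cycle 2 had 25.7, 26.0, 40.1 and 39.5 at 11 to 14 h and 45.0, 71.4, 74.3 and 86.3 at 15 to 18 h. The lower ones were the activator Arntl, also known as Bmal1 (-0.66 ± 0.11), and its relative Npas2 (-0.75). The list had a median of 0.32 in Cycle 1 and 0.18 in Cycle 2. Dbp had 0.96 and 1.05, and Per3 1.32 and 0.82.

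Of 19 smooth muscle contractile genes 9 were higher and 0 lower, with a median of 0.47. Cnn1, calponin, had 1266, 1481, 1808 and 2176 and then 2057, 2730, 3281 and 3587 in Cycle 2, where the windows overlapped through 14 h and 15 h, and its difference was 0.94 ± 0.17 (adjusted p = 0.000794). Myh11 had 0.88, Mylk 0.83, Actg2 0.72 and Acta2 0.54. Of 26 plasminogen activators, matrix proteases and inhibitors 0 were higher and 6 lower. With the adjusted p alone 16 were lower, beside 7.94% of all genes. Mmp13, a collagenase, had 5429, 5084, 4208 and 3671 and then 3474, 2767, 2145 and 2078 in Cycle 2, with a difference of -0.96 ± 0.16 (adjusted p = 0.000574), and Plat, the tissue plasminogen activator, had -0.90. Of 19 core and linker histone genes of the Hist clusters 0 were higher and 0 lower, and 14 had a mean signal under 10. Most mRNAs of these genes lack a poly(A) tail, and the libraries were made from poly(A) RNA. The part of this in the low values was not tested.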
